A study of Mus musculus with 12 samples.

Results

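Hepatic genes of bile acid synthesis, conjugation, uptake and control were followed through the first hours of ConA-induced hepatitis in mice. They were 9 genes, taken as every probe set of the deposited table whose platform annotation named 1 of them: Cyp7a1, Cyp7b1, Cyp8b1, Cyp27a1, Baat, Slc27a5, Slc10a1, Nr1h4 and Nr0b2. This gave 15 probe sets of 45101 in the table and 9 genes of the 18193 with a single symbol. ConA is a plant lectin that activates T cells and causes immune-mediated liver injury when given into a vein. Whole livers of male Balb/c mice aged 8 to 10 weeks were examined 1 h, 3 h or 6 h following tail vein injection of 20 mg/kg ConA, with 3 arrays in each group, and in a control group (0 h) with 3 arrays. Liver RNA was extracted per mouse and measured on 12 Affymetrix arrays. The 0 h mice are labelled untreated, whereas the methods of the study describe PBS controls. There was no control group at the later times, so an effect of ConA and one of time of day cannot be told apart, and Cyp7a1 is known to vary over the day in mouse liver.

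Bile acids are made from cholesterol in hepatocytes. In the classic route Cyp7a1 takes the first and rate-limiting step, and Cyp8b1 directs the product towards cholic acid. In the alternative route Cyp27a1 oxidises the side chain and Cyp7b1 then hydroxylates the ring. Slc27a5 couples bile acids to coenzyme A and Baat joins them to taurine or glycine before they are secreted into bile. Slc10a1 (NTCP) takes conjugated bile acids back from portal blood. Nr1h4 encodes FXR, the nuclear receptor that senses bile acids, and Nr0b2 encodes SHP, a corepressor that FXR induces and that is known to repress Cyp7a1 and Cyp8b1.

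The values were linear hybridization signals, and a log2 change below is a difference of group means of log2 signal from limma, after signals below the 20th percentile of all values (3.04) had been raised to that floor. A change was called at a Benjamini-Hochberg adjusted p under 0.05 over all 45037 probe sets tested. The median signal of an array lay between 13.7 and 20.4, and 17.4 to 23.1% of its probe sets were under the floor. The median log2 change over all probe sets was 0.07 at 1 h, -0.18 at 3 h and 0.04 at 6 h against 0 h. Of the 15 probe sets of the bile acid genes, 13 were brighter than the median probe set, and 3 fell under the floor on some array. With 3 arrays to a group, precision is limited throughout. In whole liver, fewer cells of a type and less RNA per cell cannot be told apart. Of 12 hepatocyte markers, none was called lower than in the control group at any time point, and 1 was higher at 3 h and 2 at 6 h. Over all genes, 0.148% were lower at 1 h, 12.9% at 3 h and 11.8% at 6 h. The shares higher were 1.45%, 4.76% and 14.4%. At such shares few of 12 markers would be called, so the count says little. The summed signal of the markers was 87917 to 95128 at 6 h against 84142 to 89769 in the control group. That sum rests on the brightest markers, among them Fgb, an acute-phase gene that rose (mean 12349 at 6 h against 7298 in the control group). Asgr1 had 1560 at 6 h against 1899, Asgr2 353 against 466 and Cps1 7524 against 8628 in the control group, none past the test.

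Cyp7a1 and Nr0b2 were lower at 3 h, and Cyp7a1, Cyp8b1 and Slc10a1 were lower and Baat higher at 6 h, than in the control group. Cyp7b1, Cyp27a1, Slc27a5 and Nr1h4 passed the test at no time point. At 1 h none of the 15 probe sets was called in either direction by limma, where 0.255% of all probe sets were lower and 1.29% higher. At 3 h, 3 of the 15 were lower and none higher, against 9.83% lower and 3.77% higher of all probe sets. At an unadjusted p under 0.05, none passed at 1 h, and 6 were lower and 1 higher at 3 h. That higher one was the dimmer Cyp27a1 probe set, under the floor on all 3 control arrays. The share of all probe sets at unadjusted p was not counted, so these counts have nothing to be set against. At 6 h, 5 were lower and 2 higher, against 8.37% lower and 12% higher of all. The median log2 change of the 15 probe sets was 0.09 at 1 h, -0.19 at 3 h and -0.15 at 6 h. All 3 arrays lay below the 3 control arrays for none of the 15 at 1 h, 6 at 3 h and 5 at 6 h, against 3.96%, 23.2% and 13.9% of all probe sets. They lay above for none at 1 h, none at 3 h and 2 at 6 h, against 10.2%, 7.28% and 19.8%. Over the 3 comparisons with 0 h jointly, the F test called 8 of the 15, against 28.1% of all probe sets. These 8 were those of Cyp7a1, Cyp8b1, Baat, Slc10a1 and Nr0b2.

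**Figure D1:**
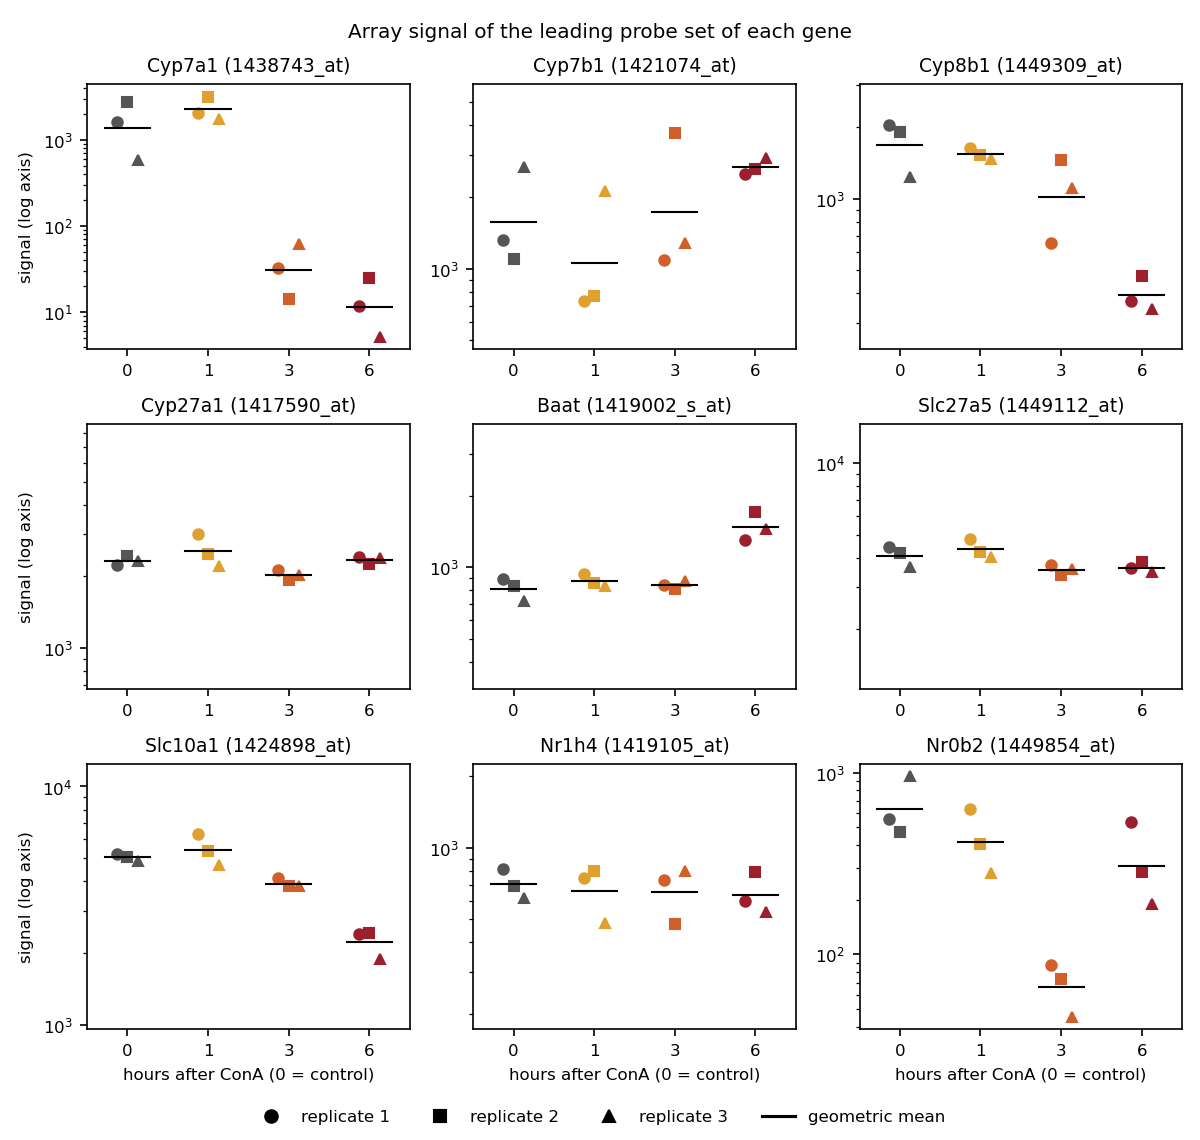
Signal of the brightest probe set of each of the 9 genes (vertical log axis) on each array at 0, 1, 3 and 6 h after ConA injection (horizontal axis). Symbols mark replicates 1, 2 and 3, and a short bar marks the geometric mean of each group. Cyp7a1 lies between 579 and 3178 at 0 h and 1 h and at or below 61.8 afterwards, and Nr0b2 is lowest at 3 h.

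The promoters of 3 genes that fell and had an entry are shown, since FXR and other nuclear receptors of this pathway are known to act at such regions. Each window runs from 250 bases before to 50 bases after a RefSeq start site (build GRCm38.p6), 5′ to 3′ on the strand of the gene, with matches to searched motifs in capitals. Nr0b2 lies on the plus strand (chr4:133553126-133553425), and Cyp8b1 (chr9:121916256-121916555) and Slc10a1 (chr12:80968030-80968329) on the minus strand.
Nr0b2: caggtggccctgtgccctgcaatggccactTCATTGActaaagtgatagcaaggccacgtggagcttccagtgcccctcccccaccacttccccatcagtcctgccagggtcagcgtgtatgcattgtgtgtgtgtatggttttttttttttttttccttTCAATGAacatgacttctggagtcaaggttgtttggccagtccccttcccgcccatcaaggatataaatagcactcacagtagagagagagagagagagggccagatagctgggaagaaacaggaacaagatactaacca
Cyp8b1: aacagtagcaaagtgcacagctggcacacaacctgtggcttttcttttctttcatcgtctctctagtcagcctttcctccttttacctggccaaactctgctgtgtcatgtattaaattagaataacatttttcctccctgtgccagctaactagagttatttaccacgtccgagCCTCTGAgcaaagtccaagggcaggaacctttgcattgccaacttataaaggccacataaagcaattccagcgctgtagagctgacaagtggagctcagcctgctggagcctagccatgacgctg
Slc10a1: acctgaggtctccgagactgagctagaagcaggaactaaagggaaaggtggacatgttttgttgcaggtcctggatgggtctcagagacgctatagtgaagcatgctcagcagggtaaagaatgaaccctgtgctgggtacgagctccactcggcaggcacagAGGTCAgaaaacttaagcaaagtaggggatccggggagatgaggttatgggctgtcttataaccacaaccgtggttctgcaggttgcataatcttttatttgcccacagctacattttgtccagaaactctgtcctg
The Nr0b2 window held TCANTGA, the centre of the inverted repeat that FXR is known to bind, at 220 and at 90 bases before the start (positions -220 and -90). The Cyp8b1 window held TCANAGG, the centre of a direct repeat of the kind HNF4A binds, on its minus strand at -75. The Slc10a1 window held AGGTCA, the repeat unit that many nuclear receptors bind, at -87. A second Slc10a1 start (chr12:80968656-80968955) and the Cyp27a1 window had no match. The Nr1h4 window had AGGTCA on its minus strand at -214 and TTANNTAA, the motif of DBP and related factors, at -131. These 6 windows covered 5 of the 9 genes, and both strands were searched. Of 32851 promoters of this length, 7.14% held TCANTGA, 19.3% TCANAGG, 16.3% AGGTCA, 6% TTANNTAA and 1.62% TCAAGGNCA, the NR5A2 motif, which no window of these genes held. A match is a description of letters and was not tested as a binding site. AGGTCA can overlap TCAAGGNCA, TCANAGG and TCANTGA.

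Cyp7a1, the rate-limiting enzyme, was far below the control group at 3 h and 6 h but not at 1 h. Its brighter probe set had signals of 1598, 2747 and 579 in the control group, 2052, 3178 and 1756 at 1 h, 32.9, 14.2 and 61.8 at 3 h and, by 6 h, 11.8, 25.2 and 5.12. All 6 arrays at 3 h and 6 h lay below all 6 at 0 h and 1 h, and the arrays within 0 h, 3 h and 6 h spread over 4.35- to 4.92-fold. The fitted log2 change against 0 h was -5.47 (SE 0.76, adjusted p = 0.0019) at 3 h and -6.89 (SE 0.76, adjusted p = 0.00029) at 6 h. The signals at 3 h and 6 h were around the median signals of their arrays (1 of 3 at or under it at 3 h and 2 of 3 at 6 h), and no detection calls were used, so the size of the fall is given as a bound. Each dim array was counted at no less than its own median, a level chosen after the values had been seen. By group means, Cyp7a1 was then at least 44.1-fold lower at 3 h and at least 68.2-fold lower at 6 h. Such bounds, here and below, leave out the spread between arrays. The 95% interval of the fitted log2 change was -7.20 to -3.75 at 3 h and -8.61 to -5.17 at 6 h. Once the median of all probe sets was subtracted the fitted changes were -5.30 and -6.93. The level at 1 h was not distinguishable from that at 0 h (log2 change 0.72, 95% interval -0.999 to 2.45, adjusted p = 0.78), nor that at 6 h from that at 3 h (-1.42, -3.14 to 0.31, adjusted p = 0.27).

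The fall between 1 h and 3 h was -6.20 on the log2 scale (SE 0.76, adjusted p = 0.0016). The second Cyp7a1 probe set had signals of 334, 476 and 108 in the control group, 431, 632 and 347 at 1 h, 13.8, 11.9 and 25.6 at 3 h and, by 6 h, 11.4, 9.77 and 0.915, the last of these under the floor. Its fitted log2 change at 3 h was -4.00 (adjusted p = 0.0042), and at 6 h -5.21 (adjusted p = 0.00055). With 2 of 3 arrays at 3 h and all 3 at 6 h at or under their medians, it was by the same reckoning at least 14.6-fold lower at 3 h and at least 13.9-fold lower at 6 h. Both probe sets had their lowest control signal on control replicate 3. Without that array the change of the brighter one was -6.09 at 3 h and -7.51 at 6 h, and with any single array left out it was between -6.09 and -4.92 at 3 h and between -7.51 and -6.31 at 6 h, called each time.

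Cyp8b1, the enzyme of cholic acid formation, was called lower at 6 h and not at 3 h. Its signals were 2044, 1905 and 1233 in the control group, 1637, 1520 and 1466 at 1 h, 649, 1452 and 1114 at 3 h and, by 6 h, 373, 472 and 344. The arrays at 3 h overlapped those of the control group, and the 3 at 6 h lay below all others. The log2 change was -0.73 (SE 0.29, adjusted p = 0.15) at 3 h and -2.10 (SE 0.29, adjusted p = 0.0010) at 6 h, a 4.29-fold lower level. The step between 3 h and 6 h was -1.37 (SE 0.29, adjusted p = 0.014). In a fit of only these groups its adjusted p was 0.066. Whether the time courses of Cyp8b1 and Cyp7a1 differed was not tested.

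In the alternative route, Cyp27a1 had nearly level signals and Cyp7b1 varied widely between mice. The brighter Cyp27a1 probe set had 2226, 2438 and 2319 in the control group, 3015, 2489 and 2198 at 1 h, 2122, 1931 and 2030 at 3 h and, by 6 h, 2410, 2256 and 2379. Its arrays at 3 h lay below those of the control group, with a log2 change of -0.20 (95% interval -0.45 to 0.05, adjusted p = 0.30), or -0.02 once the median of all probe sets was subtracted. At 6 h the change was 0.01 (-0.24 to 0.27, adjusted p = 1.0). The other Cyp27a1 probe set was under the floor on 8 of 12 arrays, among them all 3 control arrays.

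The brightest Cyp7b1 probe set had signals of 1322, 1101 and 2671 in the control group, 729, 770 and 2120 at 1 h, 1091, 3734 and 1286 at 3 h and, by 6 h, 2505, 2625 and 2931. Control replicate 3, ConA 1 h replicate 3 and ConA 3 h replicate 2 stood above their groups, whereas the 3 arrays at 6 h were close together. The highest signal of a group was 2.43 times its lowest at 0 h, 2.91 times at 1 h, 3.42 times at 3 h and 1.17 times at 6 h. No time point differed from 0 h past the test, with log2 changes of -0.57 at 1 h (adjusted p = 0.77), 0.14 at 3 h (adjusted p = 0.95) and 0.77 at 6 h (95% interval -0.50 to 2.04, adjusted p = 0.42). Without ConA 3 h replicate 2 the change at 3 h was -0.41. A second probe set had the same high arrays, with 1989 on control replicate 3, 1443 on ConA 1 h replicate 3 and 2887 on ConA 3 h replicate 2. A further probe set was under the floor on 6 of 12 arrays.

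Cyp7b1 is known to be more abundant in male than in female mouse liver. It was therefore set beside Hsd3b5 and Cyp4a12a, known for the same bias, and Cyp2b9, known for the opposite, which were chosen after their values had been seen. Hsd3b5 had 2018, 1851 and 3396 in the control group, 905, 917 and 2698 at 1 h, 614, 2105 and 780 at 3 h and, by 6 h, 170, 113 and 174. Cyp2b9 had 579, 1124 and 153 in the control group, 1878, 1361 and 209 at 1 h, 681, 180 and 785 at 3 h and, by 6 h, 430, 549 and 280. The 3 arrays with high Cyp7b1 up to 3 h had the highest Hsd3b5 and the lowest Cyp2b9 of their groups. At 6 h Cyp7b1 was high on all 3 arrays while Hsd3b5 was low on them, with a log2 change of -3.96 against 0 h (adjusted p = 0.00099). Cyp4a12a had 1347, 2821 and 2626 at 3 h, so that it was high on replicate 3 as well, where Cyp7b1 was not. The part of this variation in the Cyp7b1 result was not tested.

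**Figure D2:**
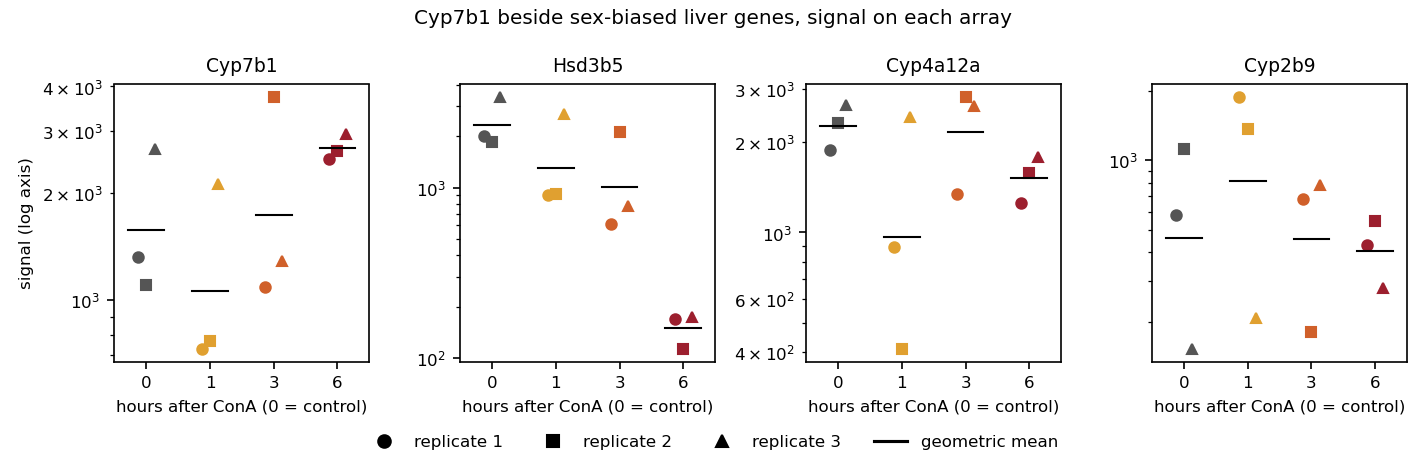
Signals of Cyp7b1, Hsd3b5, Cyp4a12a and Cyp2b9 (vertical log axis) on each array at 0, 1, 3 and 6 h (horizontal axis), with a symbol for each replicate. Up to 3 h the array with the highest Cyp7b1 in a group has the highest Hsd3b5 and the lowest Cyp2b9. At 6 h Cyp7b1 lies between 2505 and 2931 on all 3 arrays. The genes beside Cyp7b1 were chosen after their values had been seen.

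Of the conjugating enzymes, Baat rose at 6 h and Slc27a5 passed the test at no time point. The brighter Baat probe set had 895, 837 and 720 in the control group, 934, 862 and 835 at 1 h, 842, 808 and 871 at 3 h and, by 6 h, 1302, 1699 and 1447. The 3 arrays at 6 h lay above all 9 others. The log2 change at 6 h was 0.86 (SE 0.12, adjusted p = 0.00092), a 1.81-fold higher level, and the step between 3 h and 6 h was 0.81 (adjusted p = 0.0028). At 3 h the change against 0 h was 0.05 (adjusted p = 0.89).

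The other Baat probe set had 431, 449 and 357 at 6 h against 231, 209 and 166 in the control group, with a log2 change of 1.04 (adjusted p = 0.0015). Slc27a5, which forms the coenzyme A ester that Baat uses, had 4419, 4170 and 3658 in the control group, 4792, 4229 and 4048 at 1 h, 3731, 3397 and 3584 at 3 h and, by 6 h, 3605, 3831 and 3487. At each time after ConA its arrays overlapped those of the control group, while those at 3 h and 6 h lay below all at 1 h. The log2 change was -0.19 at 3 h (adjusted p = 0.26) and -0.16 at 6 h (95% interval -0.38 to 0.06, adjusted p = 0.32). After quantile normalization the change at 6 h was -0.28 and was called (adjusted p = 0.021).

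Slc10a1, the uptake carrier, had on its brighter probe set 5221, 5033 and 4847 in the control group, 6304, 5368 and 4698 at 1 h, 4114, 3805 and 3812 at 3 h and, by 6 h, 2410, 2423 and 1878. The 3 arrays at 6 h lay below all others, and those at 3 h below all of the control group and of 1 h. The log2 change was -0.36 (SE 0.13, adjusted p = 0.10) at 3 h and -1.18 (SE 0.13, adjusted p = 0.00029) at 6 h, a 2.26-fold lower level. The second probe set had 1764, 1744 and 1452 at 6 h against 3677, 4000 and 3535 in the control group, also with a log2 change of -1.18 (adjusted p = 0.00058). The step between 3 h and 6 h was -0.81 (adjusted p = 0.0042) for the brighter probe set. That between 1 h and 3 h was -0.47 (adjusted p = 0.042), and it lost its call in 4 of 8 other analyses and with 9 of the 12 arrays left out in turn, with adjusted p up to 0.65. At 3 h the change against 0 h passed the test in a fit of only these groups (adjusted p = 0.031). No other fit called it at adjusted p, and across the alternatives it shrank to -0.13, with adjusted p up to 0.57. Once the median of all probe sets was subtracted, the change at 3 h against 0 h was -0.19.

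Nr1h4, the bile acid receptor FXR, passed the test at no time point, while Nr0b2, its induced corepressor, fell at 3 h and was higher again at 6 h. Nr1h4 had 810, 692 and 613 in the control group, 746, 798 and 484 at 1 h, 731, 478 and 799 at 3 h and, by 6 h, 598, 787 and 537. Its groups overlapped throughout, with log2 changes of -0.08 at 1 h, -0.10 at 3 h (95% interval -0.68 to 0.48, adjusted p = 0.89) and -0.15 at 6 h (-0.73 to 0.43, adjusted p = 0.78). Nr0b2 had 554, 471 and 956 in the control group, 631, 404 and 279 at 1 h, 87.7, 72.9 and 45.1 at 3 h and, by 6 h, 537, 285 and 188. All 3 arrays at 3 h lay below the 9 others.

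The Nr0b2 log2 change at 3 h was -3.25 (SE 0.47, adjusted p = 0.0022), a 9.52-fold lower level, or -3.07 once the median of all probe sets was subtracted. Its step between 1 h and 3 h was -2.65 (adjusted p = 0.0075) and that between 3 h and 6 h was 2.21 (adjusted p = 0.013). At 6 h the change against 0 h was -1.04 (95% interval -2.09 to 0.01, adjusted p = 0.17). At 1 h it was -0.60 (adjusted p = 0.68). With any single array left out, the fall at 3 h was between -3.46 and -2.95 and was called. At 6 h Nr0b2 was 4.64-fold above its level at 3 h. Any relation between Nr0b2 and Cyp7a1 was not tested. Control replicate 3 had the highest Nr0b2 signal and the lowest Cyp7a1 signal of its group. ConA 3 h replicate 3 had the lowest Nr0b2 and the highest Cyp7a1 signal of its group. ConA 1 h replicate 3 and ConA 6 h replicate 3 had the lowest signal of both genes in their groups.

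**Figure D3:**
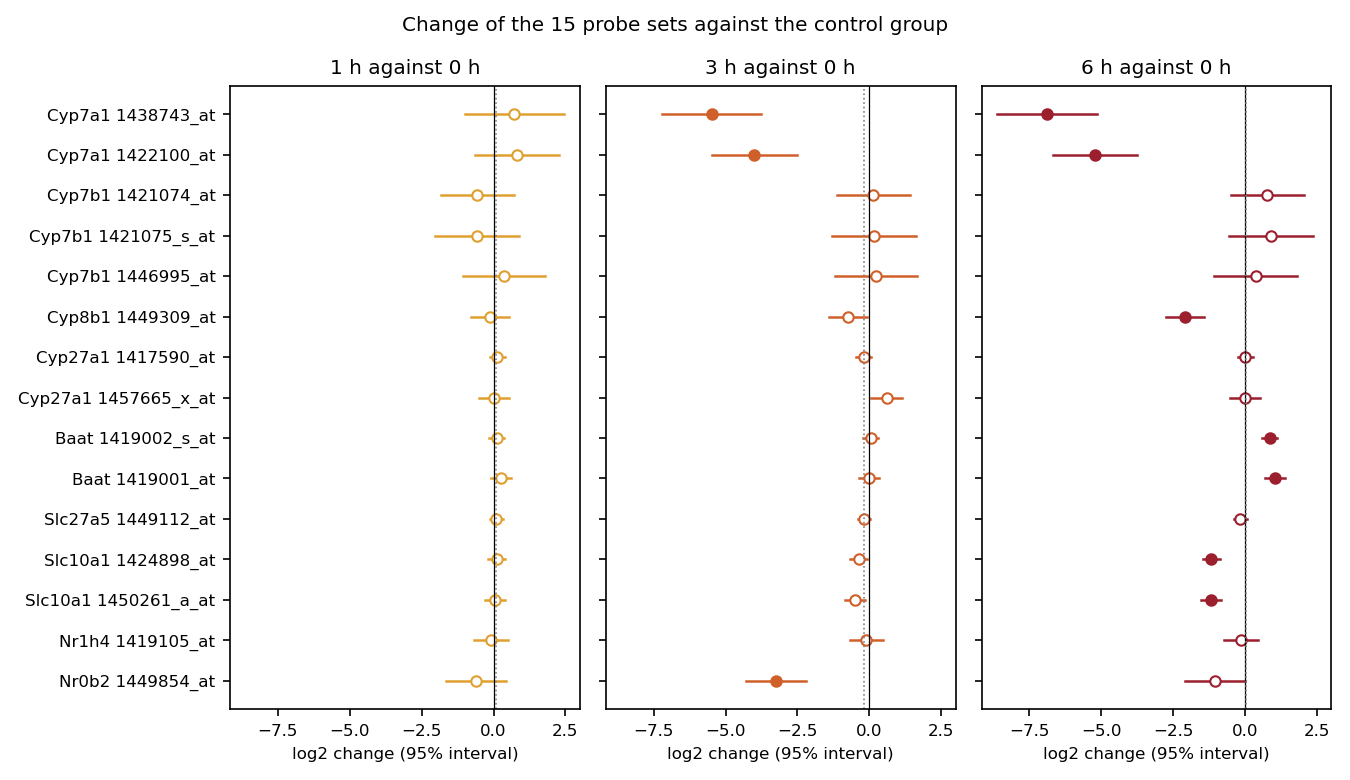
Log2 change of the 15 probe sets (rows) against 0 h at each later time (panels, horizontal axis), with 95% intervals. Filled points had an adjusted p under 0.05, and the dotted line is the median of all probe sets (0.07, -0.18 and 0.04). The Cyp7a1 probe sets reach -6.89 and -5.21 at 6 h, and those of Baat are the only filled points above 0.

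Between consecutive time points, 5 of the 15 probe sets were lower at 3 h than at 1 h and none higher, against 12.8% lower and 2.09% higher of all probe sets. These were both probe sets of Cyp7a1, both of Slc10a1 and that of Nr0b2. The count was 3 after quantile normalization, when the probe sets of Slc10a1 were not called. The median log2 change of all probe sets was -0.27 at 3 h against 1 h and 0.24 at 6 h against 3 h. At 6 h, 3 were lower than at 3 h (Cyp8b1 and both of Slc10a1) and 3 higher (Nr0b2 and both of Baat), against 2.42% lower and 14.3% higher of all. The 3 arrays at 3 h lay below all at 1 h for 8 probe sets and above for none, against 27.5% and 4.43% of all. Those at 6 h lay below all at 3 h for 4 and above for 4, against 5.48% and 27.4%.

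Of 49 other bile acid genes measured from 54 listed, 15 were lower and 2 higher at 3 h, and 23 were lower and 6 higher at 6 h. Of all genes, 12.9% were lower and 4.76% higher at 3 h, and 11.8% were lower and 14.4% higher at 6 h. At 1 h none of the 49 was called, where 0.148% of genes were lower and 1.45% higher. At unadjusted p 2 were lower and 8 higher at 1 h, with the share of all genes at unadjusted p not counted. The median log2 change of the 49 was 0.16 at 1 h, -0.32 at 3 h and -0.42 at 6 h, against 0.08, -0.21 and 0.02 over all genes. At 3 h against 1 h, 19 were lower and 2 higher (16.7% and 2.73% of all genes), and at 6 h against 3 h, 10 were lower and 8 higher (3.55% and 17.3%). Without control replicate 2 the number lower at 3 h against 0 h was 8, and with each array centred on its median it was 6. The share of all genes was not counted under these settings. Whether the number lower at 3 h still exceeded that share was therefore not tested.

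Of 14 other enzymes of bile acid synthesis, 2 were lower and 1 higher at 3 h, and 7 were lower and 1 higher at 6 h. Over all genes, 12.9% were lower and 4.76% higher at 3 h, and 11.8% and 14.4% at 6 h. The counts of these enzymes at 3 h were near those shares. Ch25h, which makes an oxysterol and is induced in macrophages by interferon, had 246, 350 and 389 at 3 h, then 817, 762 and 812 at 6 h, against 20.8, 8.36 and 16.6 in the control group. Its fitted log2 change at 3 h was 4.50 (adjusted p = 5.1e-05), and that at 6 h was 5.81 (SE 0.32, adjusted p = 7.9e-06). The control signals lay around the array medians, and against those medians as a minimum Ch25h was at least 17.4-fold higher at 3 h and at least 43.1-fold higher at 6 h. It rose while the Kupffer marker sum was lower and the neutrophil marker sum higher, a relation that was not tested. Amacr, the racemase of the peroxisomal side chain steps, had 726, 711 and 592 at 6 h against 2095, 2069 and 1849 in the control group (log2 change -1.57, adjusted p = 1.8e-05). Hsd3b7, which acts after Cyp7a1 on the sterol ring, had 1562, 1810 and 1490 at 6 h against 3321, 4053 and 3532 in the control group (-1.17, adjusted p = 0.00016). Abcd3, a peroxisomal carrier of bile acid precursors, was lower at 6 h (log2 change -1.15, adjusted p = 0.00041).

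Of 15 other transporters of bile acids and bile lipids, 5 were lower at 3 h and 7 at 6 h, and none was higher. The shares of all genes were 12.9% lower and 4.76% higher at 3 h, and 11.8% and 14.4% at 6 h. Abcg8, which with Abcg5 exports cholesterol into bile, had 300.3, 335 and 269 at 3 h, then 114, 99.0 and 84.0 at 6 h, against 537, 645 and 576 in the control group. The log2 change at 6 h was -2.57 for Abcg8 (SE 0.15, adjusted p = 1.2e-05) and -1.80 for Abcg5 (adjusted p = 0.00043). Abcc2, the canalicular carrier of conjugates, fell by 0.82 on the log2 scale at 3 h (adjusted p = 0.037), and by 6 h its change was -1.25 (adjusted p = 0.0033). Slco1a1, an uptake carrier, had -0.92 at 6 h (adjusted p = 0.0055). At 3 h Abcb4, which moves phospholipid into bile, had -0.47 (adjusted p = 0.037) and Slco1b2, an uptake carrier, -0.37 (adjusted p = 0.017). Abcb11, the bile salt export pump, was named after its values had been seen. It had 1156, 1477 and 1007 at 6 h against 1950, 1829 and 1875 in the control group (-0.65, adjusted p = 0.014).

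Of 20 other regulators, 8 were lower and 1 higher at 3 h, and 9 were lower and 5 higher at 6 h. The shares of all genes were 12.9% lower and 4.76% higher at 3 h, and 11.8% and 14.4% at 6 h. Ppargc1a, a coactivator of nuclear receptors, had 17.6, 23.7 and 20.2 at 6 h against 270.4, 219 and 129 in the control group (fitted log2 change -3.27, adjusted p = 6.9e-05), with the signals at 6 h around the array medians and a level at least 9.63-fold lower by the same reckoning. Klb, the coreceptor through which gut FGF signals to hepatocytes, had 52.7, 48.2 and 23.7 at 6 h against 224, 292 and 226 in the control group (-2.65, adjusted p = 0.00028). The real-time RT-PCR of the study does not show this fall of Klb. It lists a mean above the control at 3 h, marked as significant, and at 6 h, not so marked. Dbp, a clock output factor known to activate Cyp7a1, had -3.17 at 6 h (adjusted p = 0.0025), and Nr1i3, the receptor CAR, had -2.27 (adjusted p = 7.1e-05). At 3 h Ppara, a fatty acid receptor, had -2.63 (adjusted p = 6.0e-05) and Foxa2, a hepatocyte transcription factor, -1.22 (adjusted p = 0.0078).

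Nr5a2 was higher at 3 h and Hnf4a at 6 h. Nr5a2 and Hnf4a, both known as activators of Cyp7a1 and Cyp8b1, were named after their values had been seen. Nr5a2 had 705, 772 and 671 at 3 h against 461, 405 and 433 in the control group (log2 change 0.73, adjusted p = 0.015), and 471, 575 and 360 at 6 h (0.09, adjusted p = 0.77). Hnf4a had 1805, 1702 and 1773 at 3 h (-0.37, adjusted p = 0.058) and 3635, 4293 and 3444 at 6 h (0.73, adjusted p = 0.0017) against 2111, 2203 and 2547 in the control group. Their relation to Cyp7a1 was not tested.

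**Figure D4:**
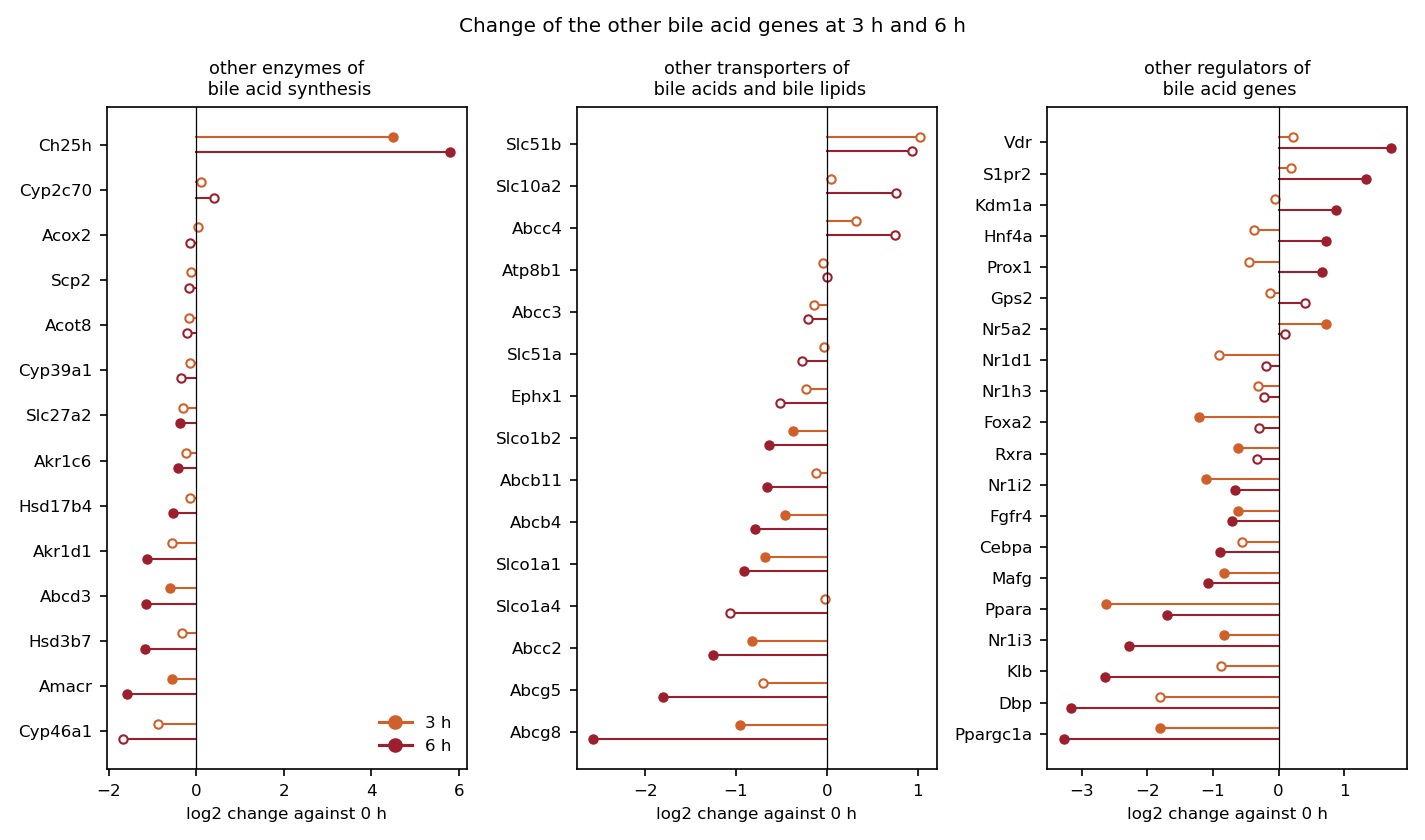
Log2 change against 0 h (horizontal axis) at 3 h (orange) and 6 h (red) of the 49 other bile acid genes (rows), in panels for synthesis, transport and control. Filled points had an adjusted p under 0.05. Ch25h reaches 5.81 and Ppargc1a -3.27 at 6 h.

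Markers of other cells were followed over the same hours. Over all genes, 11.8% were lower and 14.4% higher at 6 h. Of 10 neutrophil markers 9 were higher at 6 h, with a summed signal of 10606 to 12361 against 382 to 575 in the control group and none under the floor on a whole group. Of 8 T cell markers 3 were higher at 6 h (143 to 179 against 56.6 to 73.9), with Cd4 under the floor on all arrays at 1 h and 3 h. These control sums over 8 markers are dim, as the median probe set of a control array had 15.6 to 18.4. Of 9 Kupffer cell markers 4 were lower and 1 higher at 6 h (1409 to 1721 against 2882 to 3389), with Marco under the floor in the control group. Of 7 cholangiocyte markers 1 was higher, near the share of all genes, and the sums overlapped (92.1 to 129 against 72.0 to 131). Cftr was under the floor at 6 h. Of 10 sinusoidal endothelial markers 6 were lower and 1 higher (1654 to 1805 against 1465 to 3063). Their part in the changes of the bile acid genes was not tested. The hepatocyte marker sum at 3 h, when Cyp7a1 and Nr0b2 were low, was 83525 to 85661.

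The genes whose log2 changes at the 3 time points lay closest to those of a bile acid gene, over 4 group means and 8887 genes, were found for Cyp7a1, Slc10a1 and Nr0b2. The nearest to Cyp7a1 were G6pc, G0s2, Gas1, Dixdc1 and Ppargc1b, at a root mean square distance of 1.60, 1.74, 1.79, 2.31 and 2.31 on the log2 scale. G6pc, which releases glucose, had 0.72 at 1 h, -7.17 at 3 h and -4.70 at 6 h. These distances rest on the fitted changes of Cyp7a1 (SE 0.76), whose signals at 3 h and 6 h were around the array medians. Whether any of these genes differed from Cyp7a1 in size was not tested. Around Slc10a1 lay Gstm4, Etfrf1, Il17rc, Myo6 and Slc25a13, at 0.022 to 0.040, less than the SE of the Slc10a1 changes (0.13). Around Nr0b2 lay Prss8, Mast3, Rab23, Ciart and Rhpn2, at 0.31 to 0.51. Prss8 had -3.32 at 3 h and -1.32 at 6 h, the latter not past the test (adjusted p = 0.26). Mast3 and Ciart were not called at 6 h either, while Rab23 and Rhpn2 were lower.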

How the data were processed

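The authors deposited 1 table of linear hybridization intensities for 45101 probe sets on 12 Affymetrix arrays, and all 12 columns were matched to a sample by label, leaving 0 unused. The submitters' processing notes name MAS5 5.0 and the methods of the study name RMA. The deposited intensities were linear and their sorted values differed between arrays. They were used without new scaling. After 64 control probe sets were left out, values under the 20th percentile (3.04) were set to it, log2 was taken, and 1 limma 3.58.1 fit of 4 group means (R 4.3.3) gave every test, over 45037 probe sets, without an intensity trend. Of these, 34945 carried 1 symbol, 932 several and 9160 none, and 34741 symbols were updated by Entrez ID while 204 were kept. A gene was led by its probe set of highest mean log2, and gene counts use that one. The fit was tested on simulated data.

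The genes and lists were chosen with earlier results of these data known. All 9 genes were named by every probe set. Of each list of other genes, those named were the 4 largest changes at 6 h that passed with all 3 arrays beyond the controls and up to 2 more at 3 h. The 5 nearest genes were sought among named genes brighter than the median. Listed genes without a probe set of 1 symbol were not analysed here. Promoters came from RefSeq (GRCm38.p6), and 1 motif searched is not reported here. Alternatives were quantile normalization, centring, a pseudocount of 1, a floor at the 40th percentile, an intensity trend, a replicate block, only the groups compared, unadjusted p, a 2-fold minimum and leaving out each array.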

Additional observations from a re-analysis of the deposited data

Results flagged for a closer look

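For 5 genes the effect against the control group differed between consecutive time points, by the direct test of that difference. Between 3 h and 1 h the log2 difference was -6.20 for Cyp7a1 (adjusted p = 0.0016), -2.65 for Nr0b2 (adjusted p = 0.0075) and -0.47 for Slc10a1 (adjusted p = 0.042). Between 6 h and 3 h it was -1.37 for Cyp8b1 (adjusted p = 0.014), -0.81 for Slc10a1 (adjusted p = 0.0042), 0.81 for Baat (adjusted p = 0.0028) and 2.21 for Nr0b2 (adjusted p = 0.013). Each difference is one between 3 arrays and 3 arrays, and the control arrays cancel in it. The median over all probe sets was -0.27 between 3 h and 1 h and 0.24 between 6 h and 3 h. With it subtracted, the first was -5.93 for Cyp7a1, -2.38 for Nr0b2 and -0.20 for Slc10a1. The second was -1.61 for Cyp8b1, -1.06 for Slc10a1, 0.57 for Baat and 1.97 for Nr0b2.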

How the results depend on the processing

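The falls of Cyp7a1 at 3 h and 6 h, of Nr0b2 at 3 h, of Cyp8b1 and Slc10a1 at 6 h and the rise of Baat at 6 h kept direction and adjusted p under 0.05 in every alternative run, although the brighter Baat probe set changed by less than 2-fold. With 1 array left out, 424 of 444 values kept direction and side of the threshold, 9 lost the call and 11 changed sign. Under the other alternatives 276 of 296 did, 5 lost the call, 2 gained it and 13 changed sign. The sign changes were all of values that had not passed the test. After quantile normalization and after centring each array, the change was -0.032 and -0.023 for Baat at 1 h, -0.0091 and -0.035 for Slc27a5 at 1 h, 0.04 and 0.14 for Nr1h4 at 3 h, -0.016 and -0.14 for Cyp27a1 at 6 h, and 0.20 and 0.31 for Baat between 1 h and 3 h. Centring alone gave -0.023 for Slc10a1 at 1 h, 0.037 for Cyp27a1 at 3 h and 0.047 for Slc27a5 at 3 h. Left-out arrays gave ranges of -0.36 to 0.0064 for Cyp8b1 at 1 h, -0.0027 to 0.21 for Slc10a1 at 1 h, -0.22 to 0.14 for Nr1h4 at 1 h, -0.41 to 0.53 for Cyp7b1 at 3 h, -0.044 to 0.11 for Baat at 3 h, -0.25 to 0.12 for Nr1h4 at 3 h and -0.019 to 0.047 for Cyp27a1 at 6 h.

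Probe sets of the 9 genes lower at 3 h numbered 5 with only the groups compared and 6 at unadjusted p, against 3. At unadjusted p 1 was higher, the Cyp27a1 probe set near the floor, against 0. At 6 h, 1 was at least 2-fold higher, against 2. Lower at 3 h than at 1 h were 3 after quantile normalization, centring and a pseudocount of 1, against 5. The count was also 3 in only the groups compared and at 2-fold. After centring and at unadjusted p 1 was higher, at unadjusted p that same Cyp27a1 probe set. Lower at 6 h than at 3 h were 5 after centring and 1 at 2-fold, against 3. Other bile acid genes lower at 3 h numbered 6 after centring, 25 at unadjusted p and 4 at 2-fold, against 15, and 1 was higher at 2-fold, against 2. At 6 h, 13 were lower and 3 higher at 2-fold, against 23 and 6. At 1 h, 2 were lower and 8 higher at unadjusted p, against 0. Shares of all probe sets and of all genes were not counted under these alternatives. With left-out arrays the counts ranged from 3 to 6 lower and 0 to 1 higher at 3 h against 1 h, 0 to 1 higher at 3 h, and for the other genes from 8 to 16 lower and 1 to 2 higher at 3 h. The cause was not tested. A replicate block left 8 probe sets past the F test and 4 lower at 3 h, and changed no call of the 9 leading probe sets. Residuals of 18 pairs with the same number correlated between -0.011 and 0.038, and those of 36 pairs with another number between -0.036 and 0.029. Of 12 arrays, 8 correlated best with their own number. The labels give the numbers only as replicates, and the main fit did not use them. Whether arrays of the same number share a source was not tested. Dim probe sets near the floor set the limit of what can be seen.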
